A study of Sus scrofa with 6 samples.

Results

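Collagen IV, the laminins, the nidogens and perlecan form the basement membrane that wraps every cardiomyocyte and underlies every capillary of the heart. The list for this report held 10 genes: COL4A1, COL4A2, LAMA2, LAMA4, LAMB1, LAMB2, LAMC1, NID1, NID2 and HSPG2. The members were taken by gene name from the deposited expression table, and 8 of the 10 were found among its 13288 genes. COL4A1 and LAMA2 are absent from the table by name. At their RefSeq positions the table has 4 protein-coding gene models without a symbol, which are described beside the members and not counted among them.

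The samples came from male Tibetan minipigs of 25 to 30 kg, whose age is not given in the sources used here. In the DAC group (n = 3), the descending aorta was constricted to overload the left ventricle. The sham group (n = 3) underwent thoracotomy without constriction, and the tissue of both groups was ventricular myocardium collected at week 12 after surgery. It was whole tissue, and the labels do not say which ventricle it came from.

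Basement membranes are sheets built from laminin and collagen IV networks. A laminin molecule is a trimer of an alpha, a beta and a gamma chain that self-assembles at the cell surface, where integrins and dystroglycan bind it. Collagen IV trimers form the covalent network that gives the sheet its tensile strength, nidogens and the heparan sulfate proteoglycan perlecan link the networks, and in the myocardium the sheet carries force between the cardiomyocyte membrane and the interstitial matrix.

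Expression was given as FPKM, fragment numbers divided by transcript length and by how many fragments the sample had in all. This puts genes on a common per-length scale, but a level still depends on the gene model, as the COL4A1 models below show. The FPKM of a sample summed to between 281377 and 308771. Mitochondrially encoded genes took 24.0% to 25.3% of this sum in the sham samples, 27.1% to 27.2% in DAC replicates 4 and 6 and 32.8% in DAC replicate 5. The number of reads is unknown, so the error of each value is the spread between minipigs alone. All 9 cardiomyocyte markers that were listed by name passed the filter, with a summed level of 15733 to 18950 FPKM over the 6 samples. For the comparison of the groups, values were taken as log2(FPKM + 1), and limma's moderated test was run on the 11029 genes that reached 1 FPKM in 3 or more samples. A log2 fold change here is the difference in mean log2(FPKM + 1), DAC against sham. A gene was called changed at an unadjusted P under 0.05, the threshold of the study.

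Every member was well above the median level of the genes tested, and none of the 8 members was called changed in the DAC myocardium. Of all genes tested, 8.51% were called, 3.25% higher (358 genes) and 5.27% lower (581 genes), while 502 higher and 408 lower were called without the mitochondrially encoded genes. At this share a count of 0 among 8 genes does not set the members apart. LAMA4 and LAMC1 had the higher mean in DAC, and the other 6 members had the lower one. The median log2 fold change of the 8 members was -0.081, against -0.016 for all genes tested. The member median moved to -0.17 without DAC replicate 6, and it was -0.016 without sham replicate 2, where that of all genes was -0.019. The smallest unadjusted P of a member was 0.12, for COL4A2, and the adjusted P of the members lay between 0.648 and 0.969 from limma with Benjamini-Hochberg adjustment. No gene of the whole table reached an adjusted P under 0.05. The 95% intervals of the members' log2 fold changes ran from -0.82 at the lowest bound to 0.64 at the highest. With 3 minipigs in each group, changes of any size within a member's interval are compatible with its values.

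The 8 members together summed to 704 to 743 FPKM in the sham samples and 627 to 741 FPKM in the DAC samples. This was 0.245% to 0.257% of all FPKM in the sham group and 0.212% to 0.254% in the DAC group. With the mitochondrially encoded genes left out of the total, the share was 0.327% to 0.344% in the sham group and 0.306% to 0.348% in the DAC group. The ranges of the groups overlap on each of these scales. In whole tissue, fewer cells of a type and less RNA per cell cannot be told apart.

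**Figure D1:**
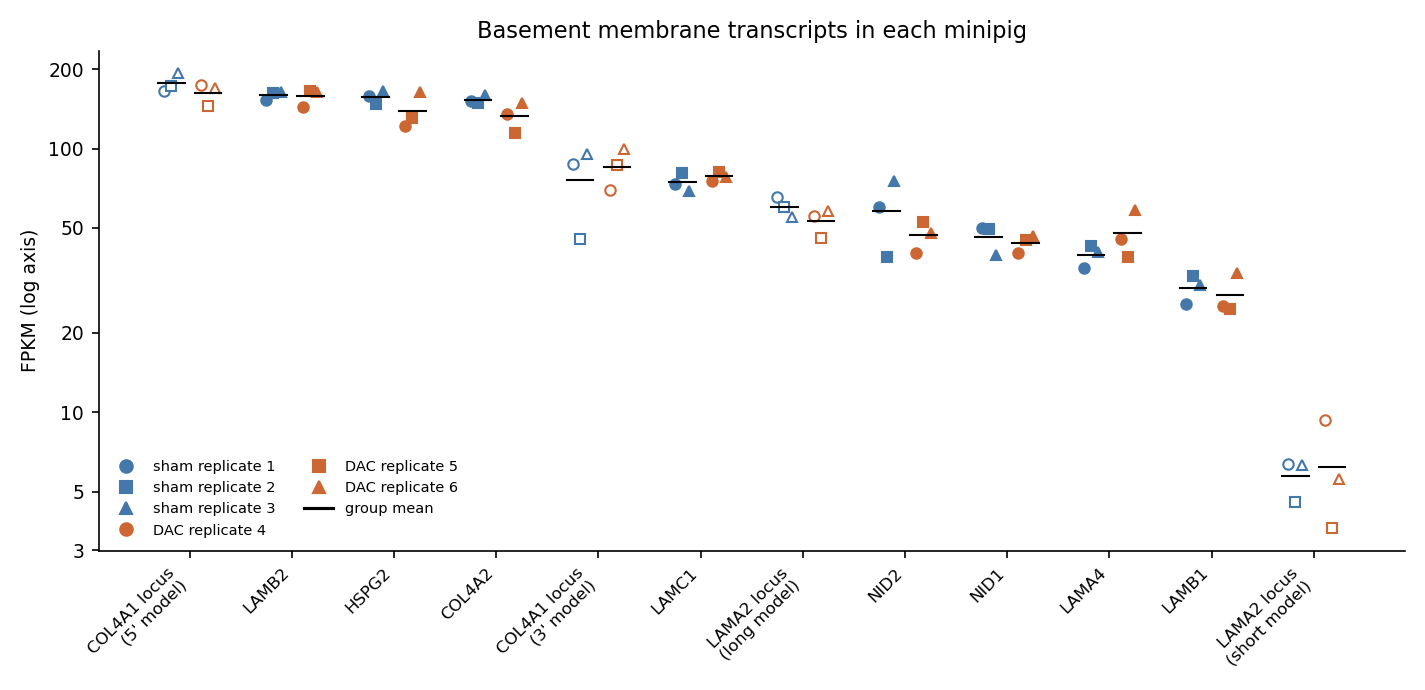
FPKM of the 8 members (filled symbols) and of the 4 gene models without a symbol at the COL4A1 and LAMA2 positions (open symbols) on a log axis, ordered by the mean of all 6 minipigs. Sham replicates are blue and DAC replicates orange, and horizontal bars are group means. Symbol shapes tell replicates apart within a group, and a shape shared between the groups does not pair minipigs. LAMB2, HSPG2, COL4A2 and the 5′ COL4A1 model lie between 115 and 193 FPKM, and the groups overlap in every column except COL4A2.

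LAMB2, perlecan and COL4A2 had the highest levels of the 8 members, above the other laminin chains and the nidogens. Over the 6 minipigs the mean was 159 FPKM for LAMB2, 148 FPKM for HSPG2 and 143 FPKM for COL4A2, against a median of 5.96 FPKM over the genes tested. These 3 genes ranked 174, 191 and 201 of 11029 by mean FPKM. Next came LAMC1 at 76.5 FPKM, NID2 at 52.5 FPKM, NID1 at 45.2 FPKM, LAMA4 at 43.6 FPKM and LAMB1 at 28.8 FPKM. The 5′ COL4A1 model stood at 170 FPKM, the 3′ COL4A1 model at 80.6 FPKM and the long LAMA2 model at 56.7 FPKM.

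Neighbours in this order were compared within minipigs by an exact two-sided sign-flip permutation test, with adjustment over 10 pairs that include the models. The order and the pairs were taken from these same values, so the P-values describe the pairs and cannot test the order. LAMB2 exceeded HSPG2 in 4 of 6 minipigs (exact P = 0.219) and HSPG2 exceeded COL4A2 in 4 of 6 (exact P = 0.375). The order among these 3 thus differed between minipigs and is not settled. The 3′ COL4A1 model exceeded LAMC1 in 4 of 6 minipigs (exact P = 0.938). NID2 exceeded NID1 in 5 of 6 minipigs (exact P = 0.406), and NID1 exceeded LAMA4 in 3 of 6 (exact P = 0.625). LAMC1 exceeded the long LAMA2 model in 6 of 6 minipigs, as did LAMA4 over LAMB1 and COL4A2 over the 3′ COL4A1 model. Each of these 3 pairs had an exact P of 0.0313, the smallest that 6 minipigs allow, and an adjusted P of 0.104.

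COL4A2 (ENSSSCG00000009545, chromosome 11 from 76997516 to 77161615, pig build susScr11) encodes a chain of the collagen IV trimer that is found in basement membranes throughout the body. It was at 152, 149 and 159 FPKM in the sham minipigs and at 135, 115 and 148 FPKM in the DAC minipigs. Every DAC sample was below every sham sample, with DAC replicate 6 only just below sham replicate 2, and DAC replicate 5 was the lowest. The group values were 153 ± 5.50 FPKM (SD, n = 3) for sham and 133 ± 17 FPKM (SD, n = 3) for DAC. COL4A2 had a log2 fold change of -0.21 (SE, standard error, 0.12, 95% interval -0.50 to 0.072, adjusted P = 0.648 from limma). For COL4A2 it was -0.11 without DAC replicate 5 and -0.12 on quantile-normalized values.

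COL4A2 was the sole member, 1 of 8, whose groups did not overlap. Among all genes tested, 14.9% had groups that did not overlap, 6.01% with the DAC group higher and 8.91% with it lower. The exact permutation P of COL4A2 was 0.10 (two-sided), and 3 values against 3 allow none smaller. After median scaling COL4A2 was at 149 to 157 FPKM in the sham samples and 121 to 145 FPKM in the DAC samples. With mitochondrially encoded genes left out and the rest rescaled, the sham samples were at 146 to 156 FPKM and the DAC samples at 117 to 148 FPKM, and the groups overlapped.

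COL4A1, the partner chain of COL4A2 in the same trimer, is represented by models without a symbol in the table. RefSeq places COL4A1 on chromosome 11 from 76858332 to 76997409 in Sscrofa11.1, head to head with COL4A2. ENSSSCG00000044051 (chromosome 11 from 76894904 to 76997414, minus strand) covers 73.7% of that span and ends 101 bases before the listed start of COL4A2, so it holds the 5′ end of the gene. ENSSSCG00000044700 (chromosome 11 from 76858296 to 76888850, minus strand) covers 21.9% of the span at the 3′ end, and a table of gene identifiers pairs it with the symbol COL4A1. The RefSeq spans of COL4A1 and COL4A2 overlap by 525 bases, and the sources used here do not say to which gene reads of the overlap were given.

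The 5′ COL4A1 model was at 166, 173 and 193 FPKM in the sham minipigs and at 174, 146 and 170 FPKM in the DAC minipigs. The groups overlap, with the lowest value again in DAC replicate 5 and the highest in sham replicate 3. The 5′ model had a log2 fold change of -0.12 (95% interval -0.39 to 0.16, adjusted P = 0.785 from limma).

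The 3′ COL4A1 model was at 87.6, 45.2 and 95.3 FPKM in the sham minipigs and at 69.5, 86.6 and 99.5 FPKM in the DAC minipigs. Sham replicate 2 was the lowest and DAC replicate 6 the highest, and the groups overlap. The 2 models of the gene differed in level and in pattern, although they lie in the same RefSeq gene. The 3′ model stood at 52.8%, 26.2% and 49.5% of the 5′ model in the sham minipigs and at 40.0%, 59.4% and 58.6% in the DAC minipigs. Its log2 fold change was 0.22 (95% interval -0.46 to 0.90), and it was -0.12 without sham replicate 2.

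**Figure D2:**
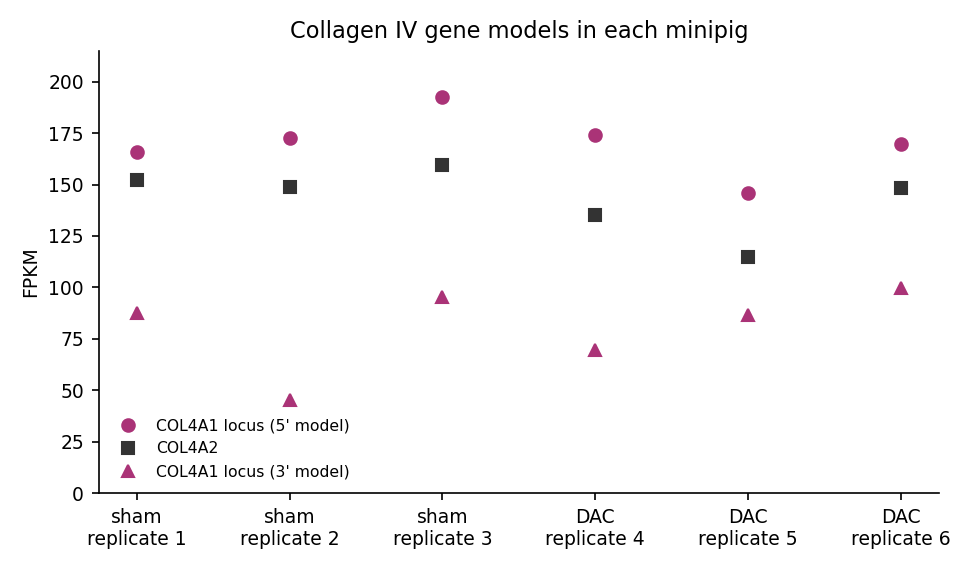
FPKM of COL4A2 (squares) and of the 2 gene models at the COL4A1 position (circles for the 5′ model, triangles for the 3′ model) in each minipig. The 5′ model lies above COL4A2 in all 6 minipigs, while the 3′ model lies below both and is lowest in sham replicate 2, at 45.2 FPKM.

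Among the laminin alpha chains, LAMA4 (ENSSSCG00000004425, chromosome 1 from 78071446 to 78224365) is the chain of laminins made by blood vessels, above all by capillary endothelium. It was at 35.1, 42.9 and 40.4 FPKM in the sham minipigs and at 45.5, 38.8 and 58.7 FPKM in the DAC minipigs. DAC replicates 4 and 6 exceeded all sham samples and DAC replicate 5 did not, so the groups overlap. The group values were 39.5 ± 3.95 FPKM (SD, n = 3) for sham and 47.7 ± 10.1 FPKM (SD, n = 3) for DAC. LAMA4 had a log2 fold change of 0.25 (SE 0.17, 95% interval -0.14 to 0.64, adjusted P = 0.694 from limma). Without DAC replicate 5 it was 0.38 with an unadjusted P of 0.0483 and an adjusted P of 0.572, and without DAC replicate 6 it was 0.092.

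LAMA2 encodes the alpha chain of the laminin that surrounds cardiac and skeletal muscle fibers and binds dystroglycan, and its loss causes a congenital muscular dystrophy. RefSeq places it on chromosome 1 from 33765412 to 34359741. ENSSSCG00000004207 (chromosome 1 from 33766865 to 34359698, minus strand), the long model without a symbol, covers 99.8% of that span. It was at 65.7, 59.8 and 54.9 FPKM in the sham minipigs and at 55.5, 45.9 and 58.2 FPKM in the DAC minipigs. The groups overlap, and DAC replicate 5 was the lowest sample. The log2 fold change of the long model was -0.18 (95% interval -0.48 to 0.13, adjusted P = 0.714 from limma). A shorter model on the same strand, ENSSSCG00000033894 (chromosome 1 from 33867639 to 34359698), lies within the long model and was at 3.64 to 9.37 FPKM, with a log2 fold change of 0.025 (95% interval -0.65 to 0.70).

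LAMB2 (ENSSSCG00000011377, chromosome 13 from 31738284 to 31771220) encodes the beta chain that is typical of mature muscle and vessel basement membranes. It was at 153, 163 and 163 FPKM in the sham minipigs and at 143, 166 and 164 FPKM in the DAC minipigs. These were the most even values of the list, with a coefficient of variation of 5.47% over the 6 minipigs. Between the groups LAMB2 differed by -0.020 on the log2 scale (standard error 0.10, 95% interval -0.26 to 0.22), and its sign turned under median scaling, under quantile normalization and without the mitochondrially encoded genes. The interval spans a fold of 0.833 to 1.17 on the log2(FPKM + 1) scale. The listed position of LAMB2 extends over USP19 and CCDC71 on the same strand, and whether shared reads entered its value was not tested.

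LAMB1 (ENSSSCG00000015444, chromosome 9 from 107671152 to 107772269) encodes the other major beta chain and had the lowest level of the 8 members. It was at 25.8, 33.0 and 30.4 FPKM in the sham minipigs and at 25.3, 24.7 and 33.8 FPKM in the DAC minipigs. The DAC samples held both the lowest and the highest value. The log2 fold change was -0.095 (95% interval -0.46 to 0.27, adjusted P = 0.884 from limma). Leaving out 1 minipig moved it between -0.23 without DAC replicate 6 and -0.015 without DAC replicate 5. Its listed position overlaps DLD on the opposite strand.

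LAMC1 (ENSSSCG00000015555, chromosome 9 from 124281834 to 124431818) encodes the gamma chain shared by the laminins of muscle and of vessels. It was at 73.6, 80.7 and 69.1 FPKM in the sham minipigs and at 75.7, 81.7 and 78.0 FPKM in the DAC minipigs. DAC replicate 5, which was the lowest sample for COL4A2 and LAMB1, was the highest for LAMC1 and LAMB2. LAMC1 had a log2 fold change of 0.077 (SE 0.10, 95% interval -0.17 to 0.32), a fold of 0.891 to 1.25 on the log2(FPKM + 1) scale. For LAMC1 it was 0.14 without sham replicate 2, 0.025 without sham replicate 3 and 0.16 on quantile-normalized values.

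Per length, the beta chains measured here were more abundant in sum than the alpha and gamma chains measured. LAMA1, LAMA5 and LAMC3 are absent by name and not part of these sums. LAMB1 and LAMB2 together were at 169 to 198 FPKM over the 6 minipigs, with 82.9% to 87.0% of that from LAMB2. LAMA4 and the long LAMA2 model together were at 84.7 to 117 FPKM, and LAMC1 was at 69.1 to 81.7 FPKM. The beta sum exceeded the alpha sum and the gamma chain in every minipig, and the beta sum overlapped between the groups.

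NID1 (ENSSSCG00000026819, chromosome 14 from 55239652 to 55435207) encodes nidogen-1, a glycoprotein that binds the laminin gamma chain and collagen IV. It was at 49.9, 49.7 and 39.4 FPKM in the sham minipigs and at 40.2, 45.2 and 46.5 FPKM in the DAC minipigs. All DAC values lay inside the sham range, and the log2 fold change was -0.068 (95% interval -0.37 to 0.24). Leaving out sham replicate 3 gave -0.18 for NID1, and leaving out DAC replicate 4 gave -0.0068. The listed position of NID1 overlaps LYST on the same strand.

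NID2 (ENSSSCG00000005030, chromosome 1 from 181699112 to 181772750) encodes nidogen-2, a related linker. It was at 59.8, 38.9 and 75.2 FPKM in the sham minipigs and at 40.3, 52.6 and 48.0 FPKM in the DAC minipigs. Sham replicates 2 and 3 held the lowest and the highest value, and all DAC values lay between them. NID2 was the most variable of the 8 members, with a coefficient of variation of 25.9% over the 6 minipigs. It was 31.4% in the sham group and 13.2% in the DAC group, where LAMA4, LAMB1 and HSPG2 varied more. NID2 had a log2 fold change of -0.26 (SE 0.24, 95% interval -0.82 to 0.30, adjusted P = 0.775 from limma). It was -0.51 with an unadjusted P of 0.0223 and an adjusted P of 0.491 without sham replicate 2, and -0.048 without sham replicate 3.

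HSPG2 (ENSSSCG00000003514, chromosome 6 from 79849687 to 79958271) encodes perlecan, the large heparan sulfate proteoglycan of vascular and muscle basement membranes. It was at 159, 147 and 166 FPKM in the sham minipigs and at 122, 131 and 163 FPKM in the DAC minipigs. DAC replicates 4 and 5 lay below all sham samples and DAC replicate 6 lay within the sham range. The group values were 157 ± 9.31 FPKM (SD, n = 3) for sham and 139 ± 21.9 FPKM (SD, n = 3) for DAC. HSPG2 had a log2 fold change of -0.19 (SE 0.13, 95% interval -0.51 to 0.12, adjusted P = 0.707 from limma). Without DAC replicate 6 it was -0.32 with an unadjusted P of 0.0381 and an adjusted P of 0.524.

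**Figure D3:**
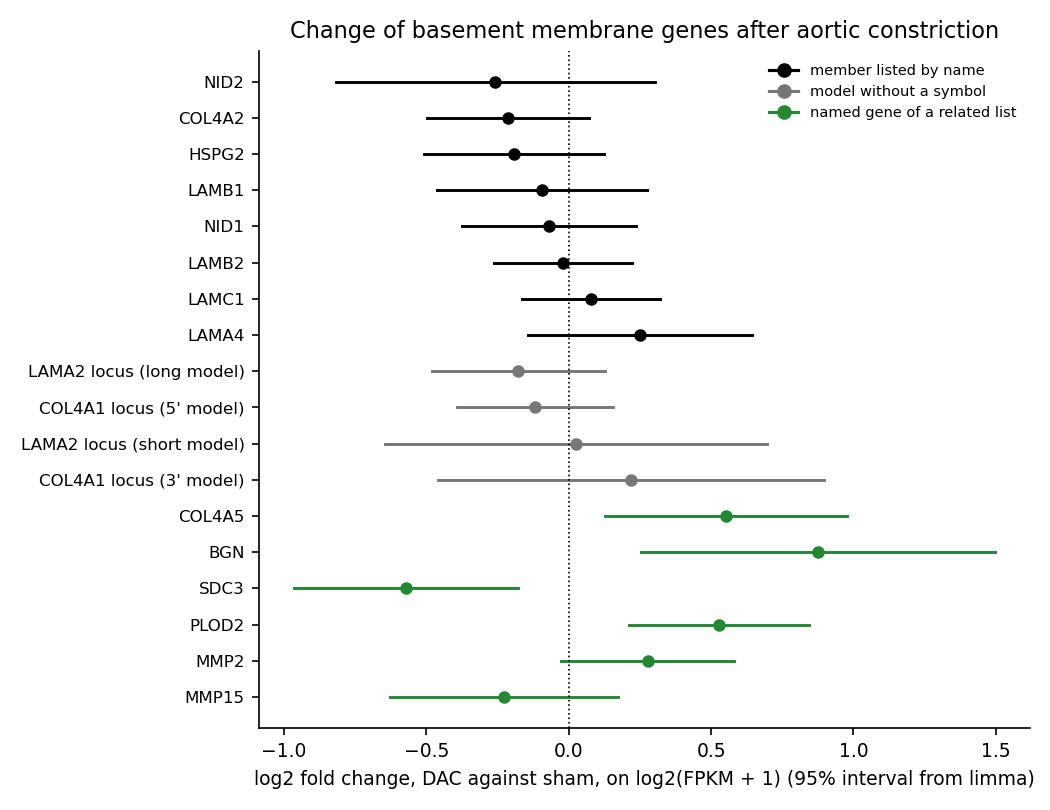
Log2 fold change, DAC against sham, on the log2(FPKM + 1) scale with its 95% interval from limma (n = 3 minipigs in each group) for the 8 members (black), the 4 gene models at the COL4A1 and LAMA2 positions (grey) and the named genes of related lists (green). Every black and grey interval crosses 0. COL4A5, BGN, SDC3 and PLOD2 were named because their unadjusted P from limma was under 0.05, so their intervals leave out 0 by that choice. No gene tested reached an adjusted P under 0.05.

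Partner chains were then compared as ratios of FPKM within each minipig, in which the scaling of the sample drops out. The ratio of LAMA4 to the long LAMA2 model was 0.535, 0.717 and 0.736 in the sham minipigs and 0.819, 0.846 and 1.01 in the DAC minipigs. All DAC ratios exceeded all sham ratios. The DAC ratio was 1.35-fold that of sham, a log2 difference of 0.44 (exact two-sided permutation P = 0.1, the smallest that 3 against 3 allows, adjusted P = 0.4 over the 4 ratios compared). The difference was 0.41 with both LAMA2 models summed, an alternative chosen after seeing the data. Leaving out each minipig gave differences from 0.29 to 0.52.

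The other 3 ratios overlapped between the groups. COL4A1, taken as the 5′ model, stood at 1.09 to 1.21 times COL4A2 in the sham minipigs and at 1.14 to 1.29 times in the DAC minipigs, a log2 difference of 0.095 (exact permutation P = 0.3). With the 3′ model in its place, chosen after seeing the data, the difference was 0.44 (exact permutation P = 0.3). LAMB1 stood at 0.168 to 0.203 times LAMB2 in the sham minipigs and 0.149 to 0.206 times in the DAC minipigs, a log2 difference of -0.078 (exact permutation P = 0.7). NID2 stood at 0.783 to 1.91 times NID1 in the sham minipigs and 1.0 to 1.16 times in the DAC minipigs, a log2 difference of -0.19 (exact permutation P = 0.7).

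**Figure D4:**
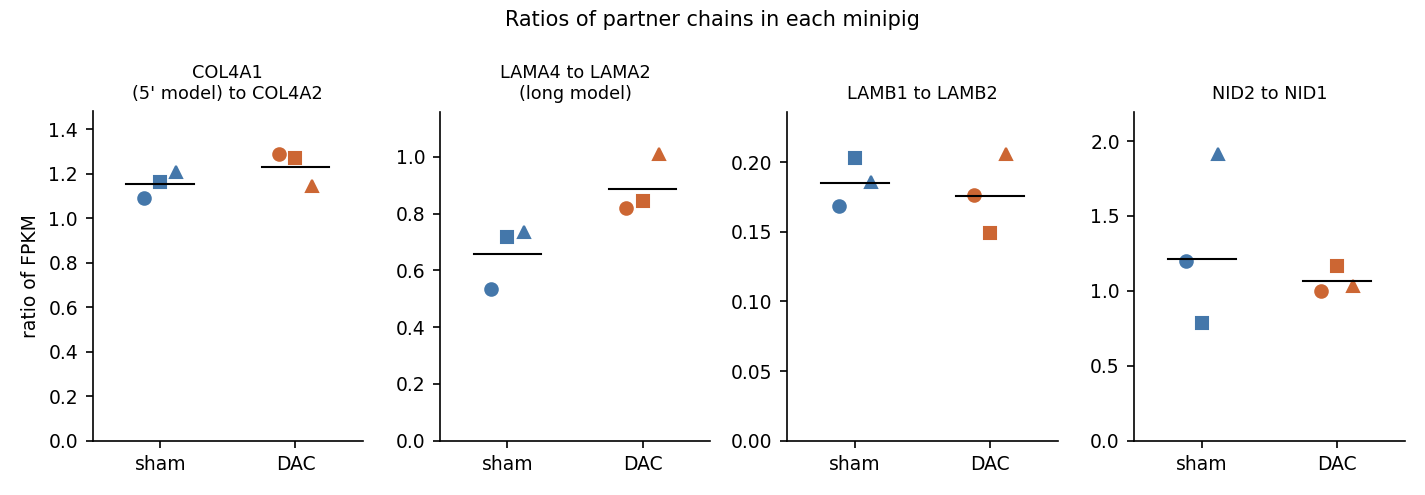
Ratio of FPKM between partner chains in each minipig for sham (blue) and DAC (orange), with a bar at the geometric mean of each group (n = 3) and a vertical axis that starts at 0 in each panel. The LAMA4 to LAMA2 ratio is the sole panel in which the groups do not overlap, from 0.535 to 0.736 in sham and from 0.819 to 1.01 in DAC.

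Some members varied together across the minipigs and others did not. Over the 28 pairs of the 8 members, Pearson's r of log2(FPKM + 1) across the 6 samples had a median of 0.22 and ran from -0.73 to 0.77, and it was above 0 in 20 pairs. The points share the group difference and the library of each minipig, so these values are descriptions. The same count over pairs of all genes tested was not made, so 20 of 28 cannot be read as a trait of the members. The highest was between COL4A2 and HSPG2. The 5′ COL4A1 model and COL4A2 had an r of 0.85, and COL4A2 ranked 241 of 11028 genes by r with that model. The 3′ COL4A1 model had an r of 0.0039 with COL4A2 and -0.037 with the 5′ model.

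LAMA4 had an r of 0.0083 with the long LAMA2 model, NID2 of -0.30 with NID1, and LAMB1 of 0.51 with LAMB2. The genes closest to LAMA4 were SDC2, which encodes the heparan sulfate proteoglycan syndecan-2, with an r of 0.998, then ITFG1 and FIG4. Those closest to LAMB1 were ERO1A, MR1 and IGSF1, and those closest to NID2 were PFKP, EXTL2 and EMC7. IGFBP6 and RAB3GAP2, beside a gene without a symbol, were closest to the 5′ COL4A1 model, all at an r of at least 0.979. NUP133, ZNF75A and NWD1 were closest to the 3′ model. These are the highest r among 11028 genes over 6 samples, and each of these genes had a closest r of at least 0.989. Whether any of them share regulation was not tested.

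Of the other collagen IV and laminin chains, those listed by name were at low levels. Of 11 such genes, 5 were listed by name, the other 6 were not looked for by position, and 3 passed the filter. Of these 3, 1 was called higher and 0 lower, where 3.25% of all genes tested were called higher and 5.27% lower. The median log2 fold change of these 3 was 0.47. Over all 5 genes listed by name, with no filter, the median was 0.050. COL4A5 (ENSSSCG00000012572, chromosome X from 88958825 to 89183374), a chain of the collagen IV trimers found in glomerular and smooth muscle basement membranes, rose in the DAC group. It was at 2.68, 1.86 and 3.22 FPKM in the sham minipigs and at 5.0, 4.24 and 3.47 FPKM in the DAC minipigs. The groups did not overlap, which held for 14.9% of all genes tested, 6.01% with the DAC group higher. Its log2 fold change was 0.55 (standard error 0.18, unadjusted P = 0.0176, adjusted P = 0.522 from limma). This call was lost without sham replicate 2 (0.40, unadjusted P = 0.0530) and without DAC replicate 4 (0.45, unadjusted P = 0.0624), and with the variance of COL4A5 on its own (unadjusted P = 0.0547).

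COL4A6, which lies head to head with COL4A5 and pairs with it in smooth muscle, was at 0.722 to 2.10 FPKM in the sham minipigs and 1.57 to 2.36 FPKM in the DAC minipigs, with a log2 fold change of 0.47 (unadjusted P = 0.0862 from limma). These chains made up a small part of collagen IV. COL4A5 stood at 1.25% to 2.02% of COL4A2 in the sham minipigs and at 2.34% to 3.70% in the DAC minipigs, a ratio chosen after its values were seen and not tested. LAMA3 and LAMB3, chains of epithelial laminins, stayed below 1 FPKM in every minipig.

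In the lists that follow, calls are to be read against the 8.51% of all genes called. Among 15 tested genes for other proteins of basement membranes, 1 was called higher and 0 lower, and their median log2 fold change was 0.0050. The gene called was BGN, which encodes biglycan, a small leucine-rich proteoglycan of the interstitial matrix more than of the basement membrane itself. BGN was at 31.5, 25.6 and 29.6 FPKM in the sham minipigs and at 67.5, 67.2 and 34.0 FPKM in the DAC minipigs. DAC replicates 4 and 5 were far above the sham samples and DAC replicate 6 just above them, and the log2 fold change was 0.88 (unadjusted P = 0.0125, adjusted P = 0.508 from limma). This call was lost with the variance of BGN on its own (unadjusted P = 0.0580).

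The receptors for laminin, collagen IV and perlecan had 0 genes called higher and 1 lower of 13 tested, with a median log2 fold change of 0.076. SDC3, which encodes syndecan-3, was at 7.86, 10.9 and 11.4 FPKM in the sham minipigs and at 7.17, 5.36 and 6.68 FPKM in the DAC minipigs. Its log2 fold change was -0.57 (unadjusted P = 0.0109, adjusted P = 0.505 from limma). The groups did not overlap for 2 of the 13 genes, SDC3 with DAC lower and the other with DAC higher, against 14.9% of all genes tested.

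Of 16 tested genes for the folding, modification and export of collagen, 1 was called higher and 0 lower, with a median log2 fold change of -0.078. PLOD2, which encodes a lysyl hydroxylase that modifies collagen telopeptides, was at 2.0, 2.73 and 2.22 FPKM in the sham minipigs and at 4.18, 3.23 and 3.93 FPKM in the DAC minipigs. PLOD2 had a log2 fold change of 0.53 (unadjusted P = 0.00547, adjusted P = 0.482 from limma). With a minimum of 5 FPKM it was no longer tested. The groups did not overlap for 3 of the 16 genes, PLOD2 with DAC higher and the others with DAC lower, against 14.9% of all genes tested.

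Of 7 tested genes for proteases that cleave basement membranes, 0 were called in either direction, with a median log2 fold change of -0.064. MMP2, a gelatinase that degrades collagen IV, was at 23.9 to 28.3 FPKM in the sham minipigs and 28.4 to 36.4 FPKM in the DAC minipigs. Its log2 fold change was 0.28 with an unadjusted P of 0.0682, and the P was 0.0405 on median-scaled values, 0.0303 on quantile-normalized values and 0.0346 without the mitochondrially encoded genes. MMP15, a membrane-bound protease, had a log2 fold change of -0.23 (unadjusted P = 0.222 from limma).

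**Figure D5:**
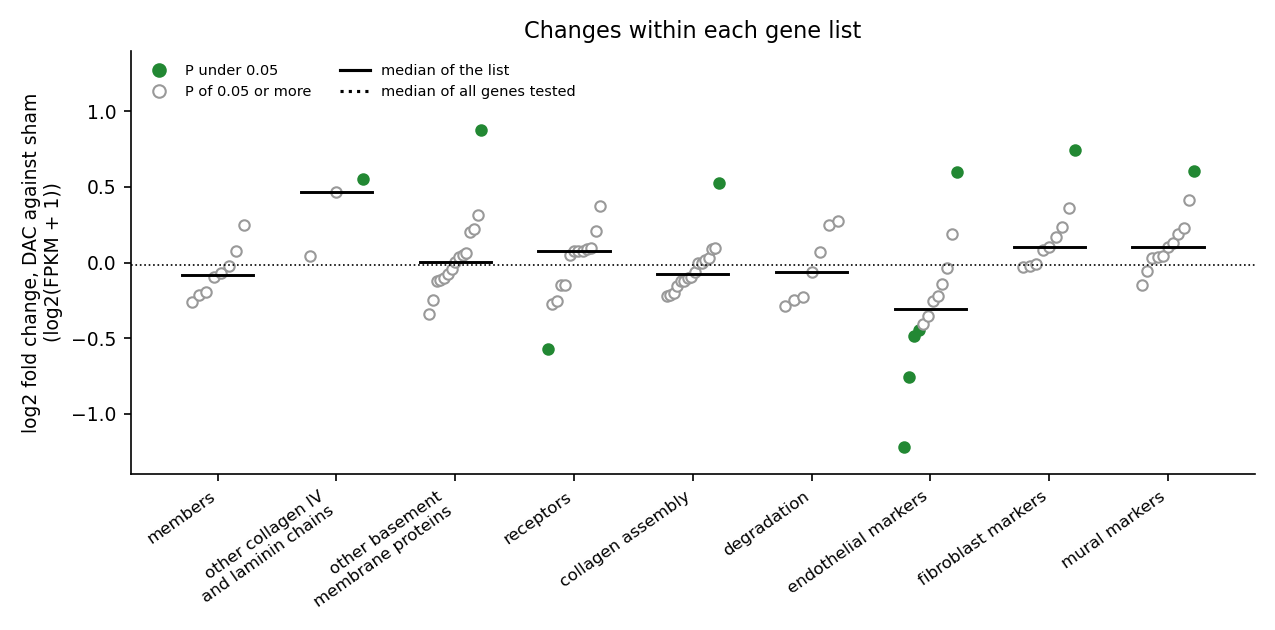
Log2 fold change, DAC against sham, on the log2(FPKM + 1) scale for each tested gene of the members, 5 related lists and 3 lists of cell type markers. Filled green points have an unadjusted P under 0.05 from limma (n = 3 minipigs in each group), short bars are list medians and the dotted line is the median of all genes tested, -0.016. No member is filled. Of the endothelial markers, 4 are filled below 0 and 1, KDR, is filled above 0.

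Endothelial cells make much of the LAMA4, collagen IV and perlecan of the heart, and their markers were measured in the same libraries. Of 12 endothelial markers tested, 4 were called lower and 1 higher, with a median log2 fold change of -0.30. CLDN5, VWF, FLT1 and ROBO4 were the genes called lower and KDR, a receptor for vascular endothelial growth factor, the gene called higher. The adjusted P of these genes was 0.482 to 0.584 from limma, and the groups of KDR overlapped. Summed over the list, the level was 228 to 322 FPKM in the sham samples and 193 to 278 FPKM in the DAC samples, and no marker was at 0. The part of these markers in the values of the members was not tested.

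Markers of the other cell types were counted in the same way. Of 9 fibroblast markers tested, 1 was called higher, LUM, with a median log2 fold change of 0.099 and summed levels of 429 to 490 FPKM in sham and 431 to 617 FPKM in DAC. Of 11 mural cell markers, 1 was called higher, CNN1, with a median log2 fold change of 0.10 and summed levels of 210 to 247 FPKM in sham and 232 to 268 FPKM in DAC. Among 9 cardiomyocyte markers, 1 was called lower, RYR2, with a median log2 fold change of -0.035. Leukocyte markers had 1 of 9 called lower, CD163. The adjusted P of LUM, CNN1, RYR2 and CD163 was 0.482 to 0.585 from limma, and the groups of CNN1 and RYR2 overlapped. The alternative settings were not examined for the cell type markers. Schwann cell, adipocyte and red blood cell markers had 4, 1 and 1 tested genes, with 0 called.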

How the data were processed

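RNA of ventricular tissue from 3 sham and 3 DAC Tibetan minipigs was sequenced as paired ends after NEBNext Ultra library preparation. The authors deposited a single FPKM table, in which each minipig has its column (replicates 1 to 3 are sham, replicates 4 to 6 DAC). Nothing in the labels pairs them. The submitters' processing notes name HISAT2 and susScr11. The quantification program is not given in the sources used here. The highest sample of every listed gene is at 0.500 FPKM or above. At most 6 of at least 3459 genes under 2 FPKM shared a log2 ratio between samples to 4 decimals, so no steps of whole reads were seen and the depth is unknown.

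R 4.3.3 with limma 3.58.1 (moderated test with a variance trend) and Python 3.11.15 with matplotlib 3.10.9 were used, and limma was tested on simulated data. P was adjusted by the Benjamini-Hochberg method over all genes tested. P-values between the groups have n = 3 in each group, except where 1 sample was left out in turn. The sign-flip P-values are over the 6 minipigs of both groups, and the main tests left out no sample. Gene models at the positions of absent members came from RefSeq on Sscrofa11.1. The members and lists were chosen with earlier results of these data known. The named genes are the members and, from each related list, up to 4 genes called by smallest P, or, where none was called, the 2 with the smallest P. For partner genes, the 3 with the highest r were named. COL4A6, LAMA3, LAMB3 and the cell type markers were named after their values were seen, and 1 gene of the related lists is not reported here by name. The tests were repeated without a filter, with a 5 FPKM minimum, on median-scaled and on quantile-normalized values, without the mitochondrially encoded genes, with 0.1 as the pseudocount, with each gene's own variance, with sample weights and without each sample in turn.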

Additional observations from a re-analysis of the deposited data

How the results depend on the processing

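No paired analysis was possible because the labels give the groups no shared replicate numbers. Of 112 alternative values of the 8 members, 105 kept direction and side of the threshold, and the lowest adjusted P was 0.491. Without a filter, with a 5 FPKM minimum and with each gene's own variance, the fold change of a member stays the same by construction. Direction could not change in those settings, so 105 of 112 overstates how stable the values are. LAMB2 turned to 0.0049 on median-scaled values, 0.073 on quantile-normalized values and 0.024 without the mitochondrially encoded genes. With 1 sample left out, the number of members called was 0 to 1 in each direction, and the log2 fold change was 0.092 to 0.38 for LAMA4, -0.51 to -0.048 for NID2, -0.32 to -0.10 for HSPG2, -0.056 to 0.047 for LAMB2, -0.30 to -0.11 for COL4A2, -0.23 to -0.015 for LAMB1, -0.18 to -0.0068 for NID1 and 0.025 to 0.14 for LAMC1, with a median over the members of -0.17 to -0.016. It was -0.12 to 0.41 for the 3′ COL4A1 model and -0.28 to 0.30 for the short LAMA2 model, and the partner differences were -0.19 to 0.041 for LAMB1 to LAMB2 and -0.51 to 0.13 for NID2 to NID1.

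For the other collagen IV and laminin chains, the median was 0.050 without a filter and 0.71 with a pseudocount of 0.1, and the number higher was 0 with the variance of each gene on its own and 0 to 2 with 1 sample left out. A minimum of 5 FPKM left no such gene. For the other basement membrane proteins the number higher was 2 without a filter, 2 after quantile normalization and 0 with the variance of each gene on its own, and with 1 sample left out it was 1 to 2 higher and 0 to 1 lower. Receptors had 1 higher on quantile-normalized values, without the mitochondrially encoded genes and with the variance of each gene on its own. With 1 sample left out they had 0 to 1 higher and 1 to 2 lower, and a median of -0.029 to 0.10. Collagen assembly had 0 higher with a minimum of 5 FPKM and 1 lower with the variance of each gene on its own, and 1 to 2 higher and 0 to 1 lower with 1 sample left out. Degradation had 1 higher on median-scaled values, on quantile-normalized values and without the mitochondrially encoded genes, and 0 to 1 with 1 sample left out. The causes were not tested. With 3 minipigs in a group, differences of any size within a printed interval are compatible with the values.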
